A study of Mus musculus with 12 samples.

Results

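Angiogenic, Notch and axon guidance genes were taken as the protein-coding genes of 4 deposited tables whose symbols name a semaphorin (Sema), plexin (Plxn), neuropilin (Nrp), VEGF, VEGF receptor (Kdr and the Flt genes), angiopoietin or angiopoietin-like protein (Angpt, Angptl), TIE receptor (Tek, Tie1), ephrin (Efn), Eph receptor, Robo, Slit, UNC5, netrin (Ntn), Notch receptor or Notch ligand (Dll, Jag). The rule used names only, left out 2 genes of these families that are not reported here, and found 65 members among 9338 listed genes, of which 6886 were protein-coding. The GENCODE M21 annotation holds 100 protein-coding genes with such names, so 35 of them were listed in none of the tables, among them Notch1, Notch2, Notch3, Angpt2, Vegfb, Robo1 and Epha2. All 5 Notch ligands, 3 VEGF receptors, 2 TIE receptors and 2 neuropilins were listed, as were 17 of 19 semaphorins.

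These families carry signals between neighbouring cells. VEGF ligands act on VEGF receptors to drive endothelial growth and sprouting, with neuropilins as co-receptors shared with the class 3 semaphorins, while angiopoietins act on TEK to keep vessels stable. Notch ligands on one cell activate Notch receptors on the next and set tip, stalk and arterial identity. Ephrin and Eph proteins signal at cell contacts, and ephrin-B2 with EphB4 marks arteries against veins. Semaphorins signal through plexins, Slits through Robo receptors and netrins through UNC5 receptors, in vessels as in growing axons.

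RNA was sequenced from CD31+ cells of the lungs of male C57Bl/6J mice aged 30 weeks, all homozygous for a floxed Tet2 allele and all injected with tamoxifen at 40 mg/kg on 3 days. TET2 KO mice carried Cdh5-CreERT2, which restricts recombination to endothelial cells, and WT mice were Cre-negative. After tamoxifen the mice ate standard chow (13% of energy from fat) or a high fat diet (HFD, 60%) for 20 weeks, which gave 4 groups of 3 mice: WT chow, WT HFD, TET2 KO chow and TET2 KO HFD. CD31+ cells were taken with antibody-coated magnetic beads, so other CD31+ cells, such as leukocytes and platelets, could be retained.

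Each table listed only the genes that passed an unadjusted p of 0.05 in the study's own test of 1 comparison, so every count below is a count among genes that had already been selected. A member was called here when edgeR's quasi-likelihood test gave an unadjusted p under 0.05. The Benjamini-Hochberg adjusted p is printed for a part of the calls, with its range over all called members of each comparison. Levels are FPKM, fragments per kilobase of transcript scaled to a fixed library size, in the order of replicates 1, 2 and 3, and can be compared between genes. Fold changes are log2 ratios from the counts, with their standard errors (SE). Library totals were 36.7 M to 56.8 M counts, the deepest being WT HFD replicate 1.

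The 12 fixed endothelial markers, among them Cdh5, Pecam1 and Cldn5, were above 0 in all 6 WT libraries, and their summed level was 359, 319 and 837 FPKM in WT chow and 1836, 1390 and 1024 FPKM in WT HFD. WT chow replicate 3 stood apart from the other WT chow libraries, and the 2 diets did not overlap. Over the 11 of these markers listed between the genotypes on HFD, the TET2 KO HFD libraries held 925, 513 and 545 FPKM. The 6 listed lung epithelial markers summed to 4386 to 5887 FPKM in WT chow and 2294 to 4651 in WT HFD, so the fraction held epithelial RNA too. In bulk RNA, fewer cells of a type and less RNA per cell cannot be told apart. Tet2 was listed for HFD against chow in WT alone, at 4.73, 5.18 and 5.15 FPKM on chow and 6.07, 6.32 and 6.71 on HFD, and in neither comparison of TET2 KO with WT. A whole-gene count is not specific for the floxed exon, so the deletion was not checked here.

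The promoter windows of 4 members are shown because these members had the 3 highest and the lowest log2 fold change between WT HFD and WT chow among called members with at least 50 normalized counts. Each window runs from 250 bases before to 50 bases after the start of transcription in RefSeq (GRCm38.p6), where 54 of the 65 members had one. Capitals mark the CG dinucleotides, the main site of the DNA methylation that TET2 acts on.
Sema3c: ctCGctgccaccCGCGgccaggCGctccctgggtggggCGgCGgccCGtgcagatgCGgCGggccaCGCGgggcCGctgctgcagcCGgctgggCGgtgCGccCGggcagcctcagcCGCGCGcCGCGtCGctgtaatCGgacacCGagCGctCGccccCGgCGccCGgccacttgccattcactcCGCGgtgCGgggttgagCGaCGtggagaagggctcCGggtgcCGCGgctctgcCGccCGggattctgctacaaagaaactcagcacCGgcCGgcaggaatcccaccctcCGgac
Ephb4: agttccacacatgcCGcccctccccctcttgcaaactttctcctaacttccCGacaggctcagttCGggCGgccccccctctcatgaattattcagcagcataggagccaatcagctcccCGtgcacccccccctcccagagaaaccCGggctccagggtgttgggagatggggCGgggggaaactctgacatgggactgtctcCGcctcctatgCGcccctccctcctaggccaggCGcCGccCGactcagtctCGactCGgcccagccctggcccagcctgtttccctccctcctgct
Sema3g: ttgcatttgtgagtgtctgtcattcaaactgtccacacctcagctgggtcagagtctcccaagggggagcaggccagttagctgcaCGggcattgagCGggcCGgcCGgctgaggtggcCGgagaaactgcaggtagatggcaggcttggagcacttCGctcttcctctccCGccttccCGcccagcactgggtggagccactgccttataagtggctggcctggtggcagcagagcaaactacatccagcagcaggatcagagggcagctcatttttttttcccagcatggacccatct
Efna2: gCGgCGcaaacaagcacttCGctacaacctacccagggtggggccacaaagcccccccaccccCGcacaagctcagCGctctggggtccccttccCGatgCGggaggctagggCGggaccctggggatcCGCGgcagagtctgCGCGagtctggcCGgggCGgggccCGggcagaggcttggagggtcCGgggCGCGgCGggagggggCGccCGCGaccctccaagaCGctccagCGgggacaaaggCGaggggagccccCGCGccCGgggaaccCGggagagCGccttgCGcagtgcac
The Sema3c window lies at chr5:17574566-17574865, Ephb4 at chr5:137349859-137350158, Sema3g at chr14:31217623-31217922 and Efna2 at chr10:80179232-80179531, all on the plus strand. Sema3c held 42 CG, a number that 3.03% of all 32851 promoter windows reached. Ephb4 held 14, Sema3g 8 and Efna2 31, which 36.3%, 48.7% and 10.6% of all windows reached. CG was present in 94.6% of all windows, and the median was 7 over all windows, 17 over the 41 windows of members called higher on HFD in WT and 26 over the 13 windows of members called lower. All windows are those of 27025 genes, listed here or not, so they are an unlike set to the members. Methylation was not measured in these data. A further 3 motifs were searched on both strands. The RBPJ core TGGGAA stood in 29.3% of the windows of members called higher, 7.69% of those called lower and 25.6% of all windows. The ETS core CGGAAG, which itself holds a CG, stood in 7.32%, 0% and 16.9%. The hypoxia response core ACGTG, which also holds a CG, stood in 14.6%, 30.8% and 19.6%.

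The widest movement of the members was on HFD in WT mice, the comparison that asks what the diet did in the absence of TET2 deletion. Of the 58 members listed, 39 were called higher and 14 lower on HFD. Among all 7330 genes listed the calls were 42.4% higher and 49.2% lower. The members' median log2 fold change was 0.93, against -0.32 over all listed genes and 0.36 over the listed protein-coding genes. At an adjusted p under 0.05, 9 members were higher and 4 lower, where 8.39% and 10.3% of all listed genes were, and the adjusted p of the 53 called members ran from 0.0357 to 0.168 with edgeR. DESeq2 put 44 members under that adjusted p, but the study's own DESeq2 test had selected the listed genes of every comparison. The share of all listed genes under that DESeq2 threshold was not counted, so the 44 is no result about the members. The 3 WT HFD libraries did not overlap with the 3 WT chow libraries for 45 of the 58 members, or 77.6%, against 86.5% of all listed genes. The call held without any 1 of the 6 libraries for 36 of the 53 called members, and the number called ranged from 37 without WT HFD replicate 1 to 52 without WT chow replicate 3. How many of all called genes keep their call in this way was not counted, here or in the other comparisons.

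**Figure D1:**
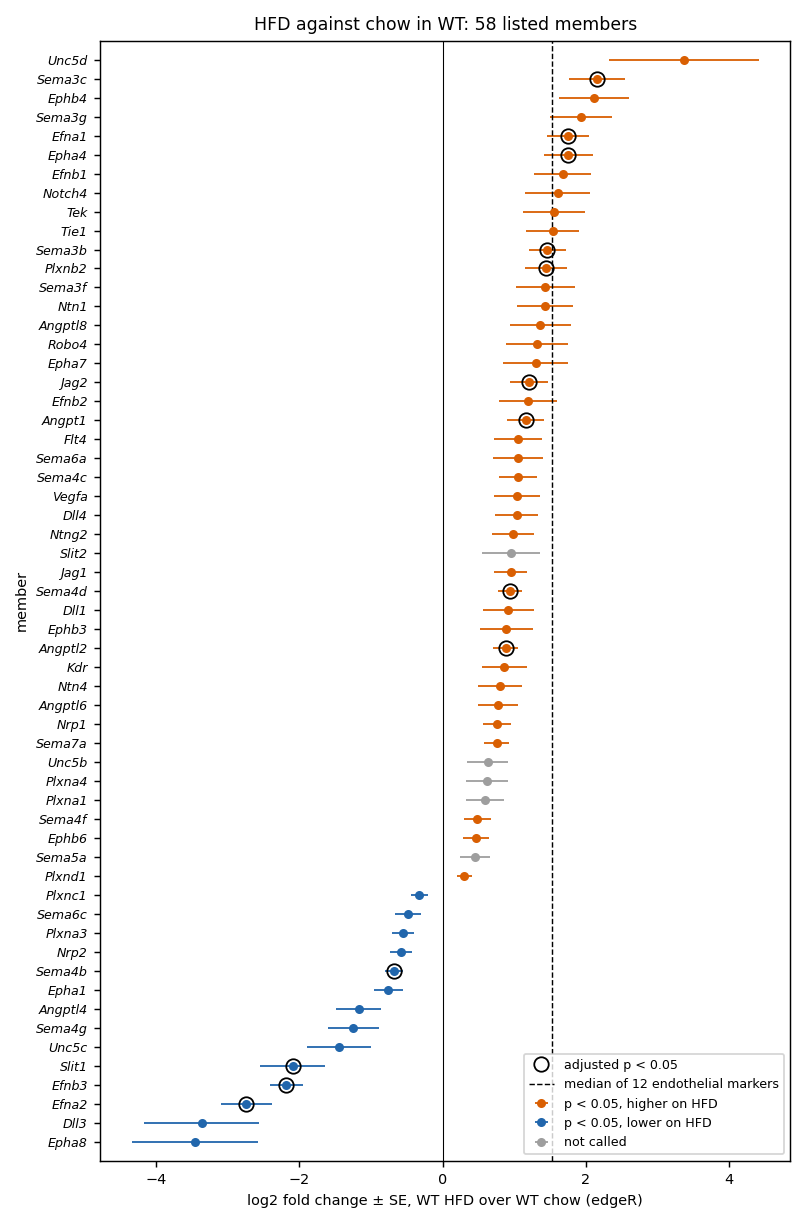
Log2 fold change of WT HFD over WT chow for the 58 listed members, with SE bars on the x axis and members on the y axis; colour gives the call, black rings an adjusted p under 0.05 and the dashed line the median of 12 endothelial markers (1.53). 39 members are called higher and 14 lower, and 10 members lie above the marker median.

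Vegfa, the main endothelial growth ligand, stood at 25.0, 21.8 and 45.8 FPKM in WT chow and 79.9, 60.4 and 48.8 FPKM in WT HFD. The HFD libraries were all above the chow libraries, although WT HFD replicate 3 was only just above WT chow replicate 3. Vegfa rose by a log2 fold change of 1.04 (SE 0.32, edgeR adjusted p = 0.0870). Kdr, its main signalling receptor, rose by 0.86 (SE 0.32), with overlapping groups. Flt4, the receptor best known in lymphatic vessels, rose by 1.05 (SE 0.33), also with overlap. The Kdr call was lost without WT chow replicate 1 (log2 fold change 0.73) or 2 (0.67) or WT HFD replicate 1 (0.69) or 2 (0.83). The Flt4 call was lost without WT chow replicate 1 (0.93) or WT HFD replicate 1 (0.81). Flt1 was not listed. The co-receptors went apart: Nrp1, with values of 12.1, 12.3 and 18.6 FPKM on chow and 26.8, 24.7 and 21.2 on HFD, rose by 0.76 (SE 0.20). Nrp2, at 3.93, 5.84 and 4.95 FPKM on chow and 3.27, 3.37 and 3.19 on HFD, was lower by a log2 fold change of -0.58 (SE 0.16), and neither gene's groups overlapped.

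Both TIE receptors rose. Tek, the angiopoietin receptor, stood at 14.7, 13.2 and 33.6 FPKM in WT chow and 72.5, 71.9 and 35.8 in WT HFD, and its relative Tie1 at 17.2, 16.2 and 37.0 against 84.4, 71.2 and 47.9. In both genes the highest chow library, replicate 3, came close to the lowest HFD library, replicate 3. The log2 fold changes were 1.56 (SE 0.43, edgeR adjusted p = 0.0709) for Tek and 1.54 (SE 0.37, edgeR adjusted p = 0.0555) for Tie1. Angpt1, the activating TEK ligand, was far less abundant, at 0.254, 0.272 and 0.227 FPKM on chow and 0.721, 0.461 and 0.490 on HFD, and rose by 1.16 (SE 0.26, edgeR adjusted p = 0.0492). Its exons share 14.2% of their bases with Gm17473 on the other strand, and a strand setting for the counting was not stated. Among the angiopoietin-like proteins, Angptl2, Angptl6 and Angptl8 were called higher. Angptl4, an inhibitor of lipoprotein lipase, stood at 16.2, 31.1 and 25.2 FPKM on chow and 8.49, 8.45 and 15.1 on HFD and fell by 1.17 on the log2 scale (SE 0.31, edgeR adjusted p = 0.0666).

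Notch4, the Notch receptor most typical of endothelium and the only Notch receptor listed, stood at 4.51, 4.43 and 12.1 FPKM in WT chow and 29.4, 19.9 and 14.6 in WT HFD, without overlap. It rose by 1.60 (SE 0.46, edgeR adjusted p = 0.0745). Of the 5 Notch ligands, Dll1, Dll4, Jag1 and Jag2 were called higher and Dll3 lower. Dll4, the ligand of tip cells and arteries, rose by 1.03 (SE 0.30) from 7.49, 7.11 and 13.4 FPKM to 24.5, 18.5 and 14.1. Jag2 rose by 1.20 (SE 0.26, edgeR adjusted p = 0.0476), from 3.05, 3.22 and 4.47 FPKM to 11.4, 6.98 and 6.29. Jag1 rose by 0.95 (SE 0.23), and Dll1 by 0.92 (SE 0.36), the last with overlapping groups and 20.5% of its exon bases shared with a gene on the other strand. The Dll1 call was lost without any 1 of WT chow replicates 1 and 2 and WT HFD replicates 1 and 2 (unadjusted p from 0.0711 to 0.132). Dll3, which acts against Notch signalling inside the cell, was near the bottom of the range, at 0.104, 0.229 and 0.234 FPKM on chow and 0.0371, 0 and 0.00895 on HFD, and was lower by a log2 fold change of -3.36 (SE 0.80).

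The ephrins split into a rising and a falling set. Efnb2, the arterial ligand, rose by 1.20 (SE 0.40), from 10.3, 7.38 and 23.2 FPKM to 33.9, 33.0 and 26.5. Its call was lost without WT chow replicate 1 (1.03) or WT HFD replicate 1 (1.13) or 2 (1.15). Efnb1 stood at 9.60, 7.73 and 20.5 FPKM on chow and 52.5, 37.4 and 30.5 on HFD, and rose by 1.67 (SE 0.39). Efna1, an ephrin induced by inflammatory signals in endothelium, rose by 1.75 (SE 0.29, edgeR adjusted p = 0.0368), from 4.33, 4.79 and 6.85 FPKM to 25.2, 15.0 and 13.4, each HFD library lying above every chow library. Efna2 and Efnb3, better known from neurons, went the other way. Efna2 stood at 1.85, 4.18 and 4.37 FPKM on chow and 0.504, 0.534 and 0.515 on HFD, and fell by 2.73 on the log2 scale (SE 0.36, edgeR adjusted p = 0.0357). Efnb3 went from 1.13, 1.39 and 1.55 FPKM to 0.266, 0.326 and 0.304 and fell by 2.18 (SE 0.23, edgeR adjusted p = 0.0357), and in both genes the 3 HFD libraries lay close together.

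Ephb4, the venous receptor for ephrin-B2, rose by 2.11 (SE 0.49, edgeR adjusted p = 0.0537). It stood at 3.97, 3.63 and 11.1 FPKM in WT chow and 37.2, 25.7 and 17.5 in WT HFD, without overlap. Epha4, a receptor for both ephrin classes, rose by 1.75 (SE 0.34, edgeR adjusted p = 0.0412), from 0.881, 0.595 and 1.38 FPKM to 2.83, 4.27 and 2.50. Of the 7 Eph receptors listed, 5 were called higher, and Epha1 and Epha8 lower. Among those called higher, Epha7 and Ephb3 had overlapping groups and lost their calls in 4 of the 6 fits that left out 1 library. The Ephb6 call was lost in 5 of these fits. Epha8 was at most 0.0924 FPKM in any WT library.

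The class 3 semaphorins, secreted ligands of plexins and neuropilins, held 2 of the 3 highest fold changes among called members with at least 50 normalized counts, the other being Ephb4. Sema3c stood at 9.14, 11.1 and 20.5 FPKM in WT chow and 78.8, 64.5 and 36.4 in WT HFD, and rose by 2.15 (SE 0.39, edgeR adjusted p = 0.0371). Sema3g, an arterial semaphorin, rose by 1.93 (SE 0.44, edgeR adjusted p = 0.0501), from 13.2, 9.74 and 28.3 FPKM to 87.5, 62.9 and 44.9. Sema3f rose by 1.43 (SE 0.41) and Sema3b by 1.46 (SE 0.26). None of these 4 genes had overlapping groups. Sema7a and Sema4d, membrane-linked semaphorins also found on lymphocytes, rose by 0.76 (SE 0.18) and 0.94 (SE 0.17). Sema4b stood at 17.8, 16.4 and 13.9 FPKM on chow and 10.6, 10.2 and 9.20 on HFD and was lower by a log2 fold change of -0.67 (SE 0.13, edgeR adjusted p = 0.0401). Over the 13 listed semaphorins, 9 were called higher and 3 lower. The plexins moved less: of 6 listed, Plxnb2 rose by 1.44 (SE 0.29) and Plxnd1, the endothelial semaphorin receptor, by 0.30 (SE 0.11), Plxna3 and Plxnc1 were called lower, and Plxna1 and Plxna4 were not called. The Plxnd1 call was lost without WT chow replicate 1 (0.27) or 3 (0.29) or WT HFD replicate 1 (0.26).

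Robo4, the endothelial member of the Robo receptors, rose by 1.32 (SE 0.43), from 4.99, 4.00 and 11.5 FPKM to 22.3, 16.8 and 11.7, where the lowest HFD library was barely above the highest chow library. The Robo4 call was lost without WT chow replicate 1 (1.13) or WT HFD replicate 1 (1.07). Slit1, a Robo ligand, stood at 0.462, 1.23 and 0.849 FPKM on chow and 0.128, 0.179 and 0.289 on HFD, and fell by 2.09 (SE 0.45, edgeR adjusted p = 0.0463), while Slit2 was at most 0.0803 FPKM in any WT library and was not called. The netrins Ntn1, Ntn4 and Ntng2 were called higher, led by Ntn1 at 1.43 (SE 0.39). Ntn4 had overlapping groups, and its call was lost in 4 of the 6 fits that left out 1 library. Among the UNC5 receptors Unc5b, the endothelial member, had a log2 fold change of 0.63 (SE 0.28) and was not called, Unc5c was called lower, and Unc5d, called higher, had no count in WT chow replicates 1 and 2 and at most 0.0191 FPKM elsewhere.

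The endothelial markers moved with the members. All 12 were called higher on HFD in WT, from 1.19 for Pecam1 to 2.24 for Sox18, with a median log2 fold change of 1.53. When each library's counts were instead scaled by the geometric mean of these 12 markers, none of the 58 members was called higher and 21 were called lower, where 0.355% of all listed genes were called higher and 72.8% lower. This scaling was chosen after seeing the data, and it moved the median of all listed genes by -1.65 on the log2 scale. Among the 39 members called higher under the size factors, the values nearest to the markers were 0.0093 (SE 0.44) for Tek, -0.017 (SE 0.44) for Tie1 and -0.017 (SE 0.47) for Plxnb2, and Notch4 stood at 0.090 (SE 0.43). The sign of 35 of the 58 members turned under this scaling. Ephb4 (0.61, SE 0.43), Sema3c (0.54, SE 0.45) and Sema3g (0.40, SE 0.44) lay above the markers, and Vegfa (-0.54, SE 0.45), Dll4 (-0.57, SE 0.43) and Kdr (-0.72, SE 0.45) below them, in every case without passing the test. The 6 members most below the markers were Dll3, Epha8, Efna2, Efnb3, Slit1 and Unc5c, at -5.11 to -3.18. A change of the members within endothelial cells and a change in the share of endothelial RNA cannot be told apart in these bulk libraries. Other lists moved as well: 5 of 5 listed arterial endothelial markers, 2 of 2 venous, 4 of 4 general capillary and 5 of 5 natural killer cell markers were called higher, the last with summed levels of 26.1 to 45.0 FPKM on chow and 87.6 to 142 on HFD. Both listed T cell markers were called higher too, while the monocyte and macrophage (2 higher, 1 lower) and lung epithelial lists (2 higher, 2 lower) were split, and the only listed neutrophil marker, Retnlg, was called lower. The part of these markers in the result was not tested.

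**Figure D2:**
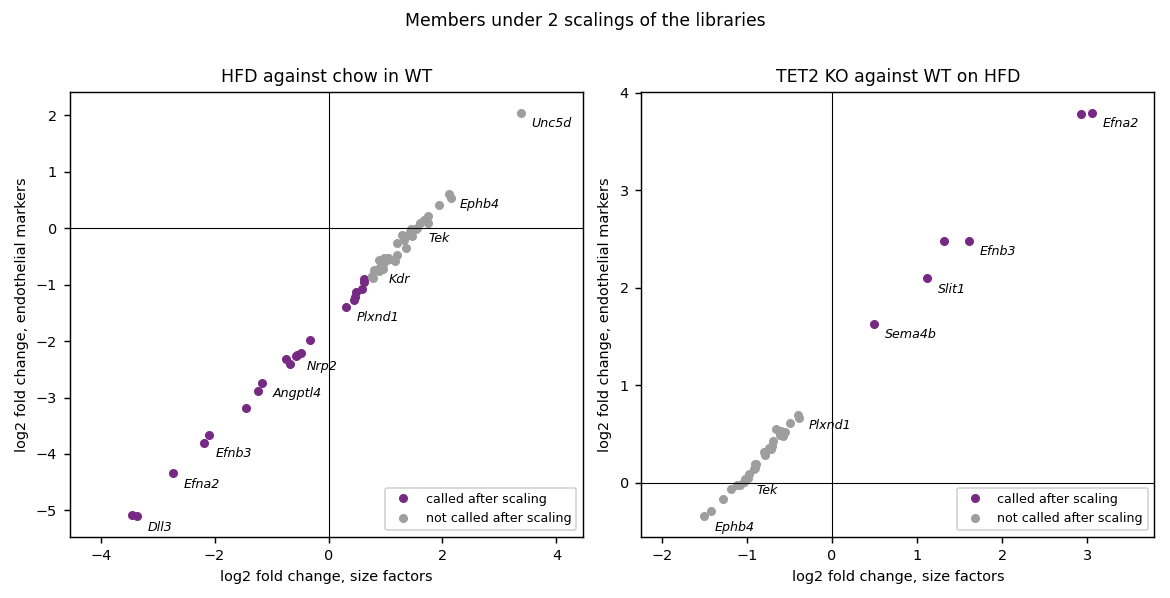
Log2 fold change of each listed member under the authors' size factors (x axis) and after scaling to the geometric mean of the endothelial markers (y axis), for HFD against chow in WT (58 members, 12 markers) and TET2 KO against WT on HFD (37 members, 11 markers). After scaling, every called member lies below 0 in the left panel (21 members) and above 0 in the right panel (6 members).

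TET2 KO against WT on HFD asks what endothelial TET2 deletion did under the diet. Of the 37 members listed, 5 were called higher and 29 lower in TET2 KO, where 43.1% and 39.1% of all 3939 listed genes were. None passed at an adjusted p under 0.05 with edgeR, the called members running from 0.237 to 0.280, and neither did any other listed gene. DESeq2 on the same counts called 36 members at an unadjusted and 8 at an adjusted p under 0.05. The share of all listed genes that DESeq2 called was not counted here either. The median log2 fold change of the members was -0.71, against 0.33 over all listed genes and -0.40 over the listed protein-coding genes. Groups did not overlap for 20 of the 37, or 54.1%, against 74.7% of all listed genes. This comparison shares the WT HFD libraries with HFD against chow in WT, so the values of the 32 members listed in both are not independent. The count of 34 called members was 9 without WT HFD replicate 1, 22 without WT HFD replicate 2, 12 without TET2 KO HFD replicate 2 and 16 without TET2 KO HFD replicate 3. Ephb4, Sema3g, Sema3c, Efnb1, Notch4, Efnb2, Efna2 and Sema4b, 8 members, kept their call without any 1 library.

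Ephb4 had the lowest log2 fold change, -1.51 (SE 0.28, edgeR adjusted p = 0.237), with 11.1, 8.72 and 8.33 FPKM in TET2 KO HFD, each below the lowest WT HFD library. Sema3g followed at -1.42 (SE 0.29), with 31.0, 19.2 and 22.2 FPKM in TET2 KO HFD. Sema3c stood at 34.2, 21.1 and 18.4 FPKM and was lower at -1.28 (SE 0.34). The highest TET2 KO HFD library for Sema3c, replicate 1, was just under the lowest WT HFD library, and this replicate also held the most endothelial marker RNA of its group. Efnb1 was lower at -1.19 (SE 0.28), Notch4 at -1.11 (SE 0.33) and Efnb2 at -0.99 (SE 0.27), and none of these groups overlapped.

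Tek (45.7, 21.8 and 20.9 FPKM in TET2 KO HFD) and Tie1 (54.2, 29.1 and 25.0) were called lower at -1.02 (SE 0.39) and -0.90 (SE 0.34), with overlapping groups. Both calls were lost without WT HFD replicate 1 or 2 or TET2 KO HFD replicate 2 or 3, with unadjusted p from 0.0879 to 0.0992 for Tek and from 0.0733 to 0.0931 for Tie1. Dll4 (14.0, 7.31 and 6.43 FPKM) was called lower at -1.04 (SE 0.34), and Vegfa (48.5, 32.0 and 31.7 FPKM) at -0.75 (SE 0.25), again with overlap. The Dll4 and Vegfa calls were lost without WT HFD replicate 1 or TET2 KO HFD replicate 2 or 3 (unadjusted p from 0.0529 to 0.0655). Flt1, the VEGF receptor that also exists as a soluble trap, stood at 24.9, 21.8 and 17.2 FPKM in WT HFD and 19.4, 13.5 and 9.73 in TET2 KO HFD and was not called (-0.58, SE 0.27).

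The 5 members called higher were Efna2, Efnb3, Unc5c, Slit1 and Sema4b. Unc5c and Slit1 had overlapping groups, and each call was lost in 4 of the 6 fits that left out 1 library. Unc5c was at most 0.145 FPKM in TET2 KO HFD and 0.0586 in WT HFD. Efna2 stood at 9.87, 2.39 and 0.579 FPKM in TET2 KO HFD against 0.504, 0.534 and 0.515 in WT HFD, and Efnb3 at 1.67, 0.703 and 0.338 against 0.266, 0.326 and 0.304. In both genes replicate 1 was the highest and replicate 3 barely left the WT HFD range. Efna2 rose by 3.06 (SE 0.90), a value that was 1.52 without TET2 KO HFD replicate 1. Efnb3 rose by 1.61 (SE 0.55), and its call was lost without WT HFD replicate 1 (1.53) or 2 (1.68) or TET2 KO HFD replicate 1 (0.80). Sema4b rose by 0.50 (SE 0.14), from 10.6, 10.2 and 9.20 FPKM to 14.0, 13.1 and 15.1, with the narrowest spread of these 5.

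Of the 11 endothelial markers listed here, 9 were called lower, with a median of -1.02. After scaling to these 11 markers no member was called lower and 6 were called higher, where 0.406% and 54.3% of all listed genes were, and the median of all listed genes moved by 1.09. The sign of 25 of the 37 members turned. The 6 were Efna2, Dll3, Unc5c, Efnb3, Slit1 and Sema4b, at 3.79 (SE 0.68, edgeR adjusted p = 0.0189) for Efna2 down to 1.63 (SE 0.35) for Sema4b. Tek then stood at 0.04 (SE 0.28), Notch4 at -0.02 (SE 0.27) and Ephb4 at -0.34 (SE 0.30). All 5 general capillary markers and 3 of 4 listed arterial markers were called lower too. So were markers of other cells: the lung epithelial markers Hopx (-0.73) and Ager (-1.06), the only 2 listed of 11, with sums of 70.3 to 85.3 FPKM in WT HFD and 28.8 to 48.0 in TET2 KO HFD, and the monocyte marker Ccr2 (-1.05), the only 1 listed of 7. Their part in the result was not tested.

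**Figure D3:**
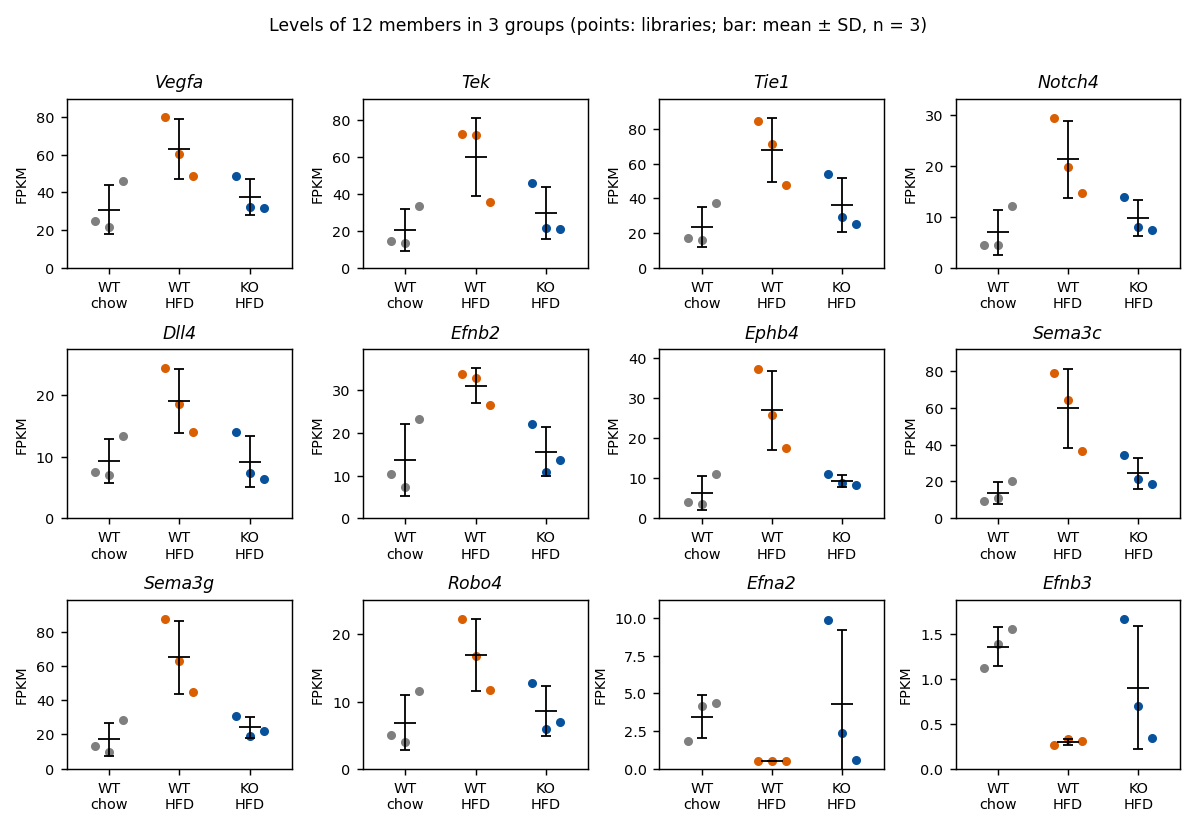
FPKM (y axis) of 12 members in WT chow, WT HFD and TET2 KO HFD (x axis), with a point per library and the mean ± SD of 3 libraries; parts of a bar under 0 are not drawn. For Ephb4 the TET2 KO HFD libraries sit between 8.33 and 11.1 FPKM and the WT HFD libraries between 17.5 and 37.2.

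Set beside WT chow, the TET2 KO HFD libraries overlapped with WT chow for 34 of the 37 members that had values in WT chow, WT HFD and TET2 KO HFD. They did so for 85.6% of all 3395 genes with such values. Of the 37 members, 32 were listed in both comparisons that use the WT HFD libraries. Such listing favours WT HFD values apart from the other 2 groups, so the overlap is no separate result. For 31 of the 37 the TET2 KO HFD mean lay between the means of WT chow and WT HFD. The same listing favours such a place, and the share over all 3395 genes was not counted, so this is no separate result either. The 3 groups come from different tables but their FPKM were equal wherever a library stood in both tables. The exceptions to the overlap were Epha4, Angpt1 and Nrp2. Epha4 stood at 2.50, 1.64 and 1.69 FPKM and Angpt1 at 0.371, 0.381 and 0.615 FPKM in TET2 KO HFD, both above all WT chow libraries. Nrp2, at 2.72, 2.89 and 2.25 FPKM, was below all of them.

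HFD against chow in TET2 KO shares no library with the same diet comparison in WT. It listed 9 members, of which 2 were called higher and 5 lower, where 29.3% and 47.7% of all 1628 listed genes were. The adjusted p of the called members ran from 0.706 to 0.757 with edgeR, so none passed, and 1 listed gene that is no member did. DESeq2 put all 9 under an unadjusted p of 0.05 and 0 under an adjusted one. The median was -0.54 for members and -0.51 both over all listed genes and over the listed protein-coding genes. Groups did not overlap for 5 of the 9, or 55.6%, against 72.6% of all listed genes. With TMM factors the median of all listed genes moved by 0.25 and the share of calls that were higher went from 38.0% to 64.2%, while no member changed sign. The members' own calls went from 2 higher and 5 lower to 3 higher and 2 lower with TMM factors, and to 3 higher and 1 lower without TET2 KO chow replicate 1. Nrp2 was the member whose call held without any 1 library. It stood at 5.38, 4.87 and 3.26 FPKM in TET2 KO chow and 2.72, 2.89 and 2.25 in TET2 KO HFD, and was lower at -0.78 (SE 0.22, edgeR adjusted p = 0.706).

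Sema3e, the ligand of plexin D1 (Plxnd1), stood at 2.89, 2.26 and 1.09 FPKM in TET2 KO chow and 0.845, 1.19 and 0.783 in TET2 KO HFD, and was called lower at -1.15 (SE 0.36), a call lost without TET2 KO chow replicate 1 (-0.83). Angptl4 (-0.86, SE 0.35), Unc5a (-0.54, SE 0.20) and Plxnc1 (-0.41, SE 0.16) were also called lower. Angpt1 (0.74, SE 0.31) and Epha4 (0.66, SE 0.25) were called higher. Each of these 5 calls was lost without at least 1 library: Angptl4 without TET2 KO chow replicate 1 or 2 or TET2 KO HFD replicate 1 or 3, Unc5a without TET2 KO chow 1 or 3 or TET2 KO HFD 1 or 3, Plxnc1 without any but TET2 KO HFD 2, Angpt1 without TET2 KO chow 2 or 3 or TET2 KO HFD 2 or 3, and Epha4 without TET2 KO chow 2 or 3 or TET2 KO HFD 1 (unadjusted p from 0.0503 to 0.190). The 7 members Nrp2, Angptl4, Plxnc1, Angpt1, Epha4, Slit2 and Plxna1 were listed in both diet tables, and 6 of them had the same sign in both, as did 70.4% of the 611 genes listed in both. Nrp2, Angptl4 and Plxnc1 were lower on HFD in both genotypes and Angpt1, Epha4 and Slit2 had positive values in both, while Plxna1 was 0.59 (SE 0.26) in WT and -0.77 (SE 0.33) in TET2 KO, called in neither. Emcn, the only endothelial marker listed here, was called higher at 0.98, and 4 of 5 listed mesothelial and 3 of 4 listed fibroblast markers were called higher. Called lower were 2 of 3 listed T cell markers, 2 of 3 listed monocyte and macrophage markers, which summed to 3908 to 5444 FPKM in TET2 KO chow and 1965 to 3324 in TET2 KO HFD, and the only listed epithelial (Epcam) and lymphatic (Prox1) markers. The part of these markers in the result was not tested.

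TET2 KO against WT on chow listed 7 members, of which 3 were called higher and 3 lower, where 30.6% and 46.0% of all 1298 listed genes were. The adjusted p of the called members ran from 0.792 to 0.925 with edgeR, and no listed gene passed an adjusted p of 0.05. DESeq2 called 6 members at an unadjusted and 0 at an adjusted p under 0.05. Groups did not overlap for 5 of the 7 members, or 71.4%, against 74.7% of all listed genes. The median was 0.67 for the members, -0.37 over all listed genes and 0.35 over the listed protein-coding genes. Only 2 calls held without any 1 library. Dll3 was one of them, at 0.0247, 0.00847 and 0.0443 FPKM in TET2 KO chow, below all WT chow libraries, and was lower at -2.82 (SE 0.59). Sema4f was the other, at 1.46, 1.14 and 1.67 FPKM in WT chow and 2.21, 2.04 and 2.56 in TET2 KO chow, and rose by 0.67 (SE 0.20).

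Efna1 stood at 23.2, 5.40 and 8.38 FPKM in TET2 KO chow, so that replicate 1 alone was far above WT chow. Its log2 fold change of 1.22 (SE 0.52) was 0.37 without that library, and the call was lost there and without WT chow replicate 1 (1.10) or 2 (1.14). The same library was the highest of its group for Sema3f, Plxna1 and the endothelial marker Ramp2, at 52.9, 21.5 and 92.7 FPKM. It was so too for the endothelial markers Sox18 (71.4), Calcrl (152) and, narrowly, Emcn (2.67). Plxnb2 was called higher at 0.71 (SE 0.24), and Sema4b and Ephb2 lower at -0.36 (SE 0.15) and -1.27 (SE 0.54). The Plxnb2 call was lost without WT chow replicate 1 or 2 or TET2 KO chow replicate 3 (unadjusted p from 0.0539 to 0.0747), and those of Sema4b and Ephb2 without any 1 of 5 of the 6 libraries (unadjusted p from 0.0511 to 0.154). Of 3 endothelial markers listed here 1, Sox18, was called higher at 1.44. All 4 listed fibroblast, all 4 listed mesothelial and both listed lung epithelial markers (Scgb1a1 and Scgb3a2) were called lower. In the other direction 3 of 4 listed T cell markers, both listed natural killer cell markers, and Mmrn1 (lymphatic), Ednrb (aerocyte) and Ccr2 (monocyte), each the only 1 listed of its list, were called higher. The T cell markers summed to 42.0 to 67.3 FPKM in WT chow and 71.6 to 99.4 in TET2 KO chow, and the natural killer cell markers to 14.8 to 23.7 and 26.5 to 40.3. The part of these markers in the result was not tested.

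**Figure D4:**
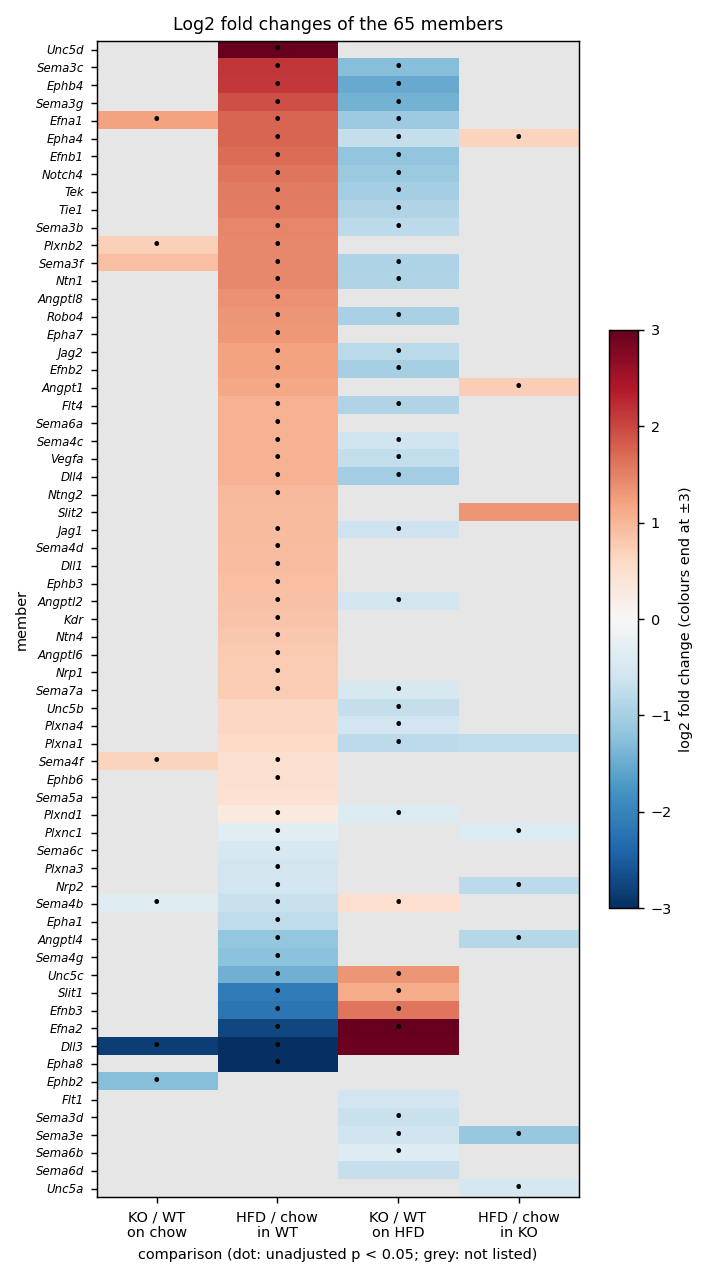
Log2 fold change (colour) of the 65 members (rows) in the 4 comparisons (columns), with a dot where the unadjusted p is under 0.05 and grey where the gene was not listed. HFD against chow in WT holds 58 members, TET2 KO against WT on HFD 37, and the other 2 columns 9 and 7.

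Whether the diet effect differed between genotypes could be fitted for the 11 members with counts in all 12 libraries. These were among 975 such genes, each listed in 2 or more tables that together cover the 4 groups, and the listing itself favours a difference: 56.4% of the 975 had an unadjusted and 55.5% an adjusted p under 0.05. Of the 11 members, 6 and 5 did. Sema4b, Dll3, Efna1 and Sema3f were among the 11 because both genotype comparisons listed them. Of the 461 genes so listed, 99.1% had opposite signs on the 2 diets, as had these 4. For them the listing all but set a difference in advance. The adjustment covered the 975 genes alone, against 18463 or more in each of the 4 comparisons. Efna1 had a diet effect of 1.75 in WT and -0.55 in TET2 KO, a difference of -2.31 (SE 0.71, edgeR adjusted p = 0.0197). The difference for Efna1 was -1.46 without TET2 KO chow replicate 1. Sema3f differed by -1.82 (SE 0.64, edgeR adjusted p = 0.0290) and Plxna1 by -1.35 (SE 0.48, edgeR adjusted p = 0.0317), and for both the adjusted p stayed under 0.05 in 6 of the 12 fits that left out 1 library. Without TET2 KO chow replicate 1 the differences were -1.30 for Sema3f and -0.96 for Plxna1. The endothelial markers Ramp2, Sox18 and Calcrl, also with values in all 12 libraries, shared this shape. In WT each HFD library was above every chow library. In TET2 KO the diets overlapped, and chow replicate 1 was the highest library, at 92.7, 71.4 and 152 FPKM. Emcn, a further marker with such values, was higher on HFD in both genotypes. The part of endothelial RNA in the differences was not tested. Sema4b differed by 0.85 (SE 0.24, edgeR adjusted p = 0.0159), from a diet effect of -0.68 in WT to 0.18 in TET2 KO. Dll3 differed by 5.74 (SE 1.64, edgeR adjusted p = 0.0168) at levels that reached 0.360 FPKM at most, and by 3.19 without TET2 KO HFD replicate 1, which held that level. Epha4 was called at -1.09 (SE 0.46, edgeR adjusted p = 0.0615), a call lost in 7 of the 12 fits that left out 1 library, and Angpt1, Nrp2, Angptl4, Slit2 and Plxnc1 were not called.

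**Figure D5:**
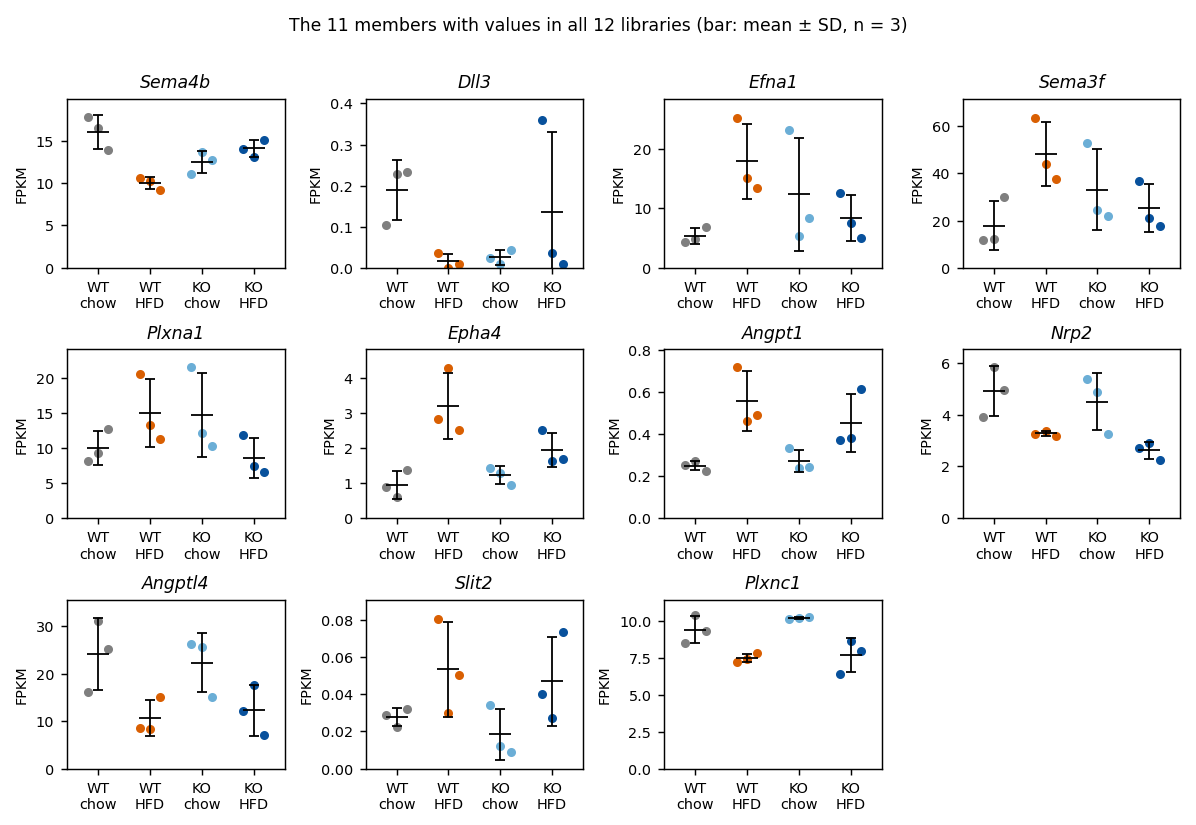
FPKM (y axis) of the 11 members with values in all 12 libraries, by group (x axis), with a point per library and the mean ± SD of 3 libraries; parts of a bar under 0 are not drawn. Efna1 reaches 25.2 FPKM in WT HFD and 23.2 in 1 TET2 KO chow library, while the other 2 TET2 KO chow libraries are at 5.40 and 8.38.

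Genes that work with the members were followed in 3 lists. Of all listed genes, 42.4% were called higher and 49.2% lower for HFD in WT. The shares were 43.1% and 39.1% for TET2 KO against WT on HFD, 29.3% and 47.7% for HFD in TET2 KO, and 30.6% and 46.0% between genotypes on chow. Cdh5 and Ptprb are also among the endothelial markers, Hey1 among the arterial and Aplnr among the general capillary ones. The part of endothelial RNA in these counts was not tested. Of 30 Notch pathway partners, 9 were listed for HFD against chow in WT, with 7 called higher and 1 lower. Hey1 and Hes1, direct Notch targets, rose by 1.90 and 1.03 there. For TET2 KO against WT on HFD 7 were listed. Hes5 (1.21) and Maml1 (0.38) were called higher and 5 lower, among the latter Hey1 at -1.44. Between the genotypes on chow Hes1 alone was listed and called higher, at 0.68, and none was listed for HFD against chow in TET2 KO. Of 30 partners of the vascular growth factors, 15 were listed for HFD in WT, with 12 called higher and none lower. Nos3, the endothelial nitric oxide synthase, rose by 1.82, and Aplnr, the apelin receptor, by 3.00. In TET2 KO against WT on HFD 1 of 11 listed was called higher and 9 lower, with Aplnr at -1.91 and Pdgfb at -1.10. In HFD against chow in TET2 KO 2 of 4 were called lower, Svep1 and Pgf, and between the genotypes on chow Nos3 was listed and not called. Of 35 guidance signalling partners, 14 were listed for HFD in WT, with 10 called higher and 1 lower, led by Dpysl3 at 1.76. In TET2 KO against WT on HFD 1 of 8 was called higher and 5 lower, with Dpysl3 at -1.21, in TET2 KO against WT on chow 2 of 3 were called higher, and none was listed for HFD against chow in TET2 KO.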

How the data were processed

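Poly(A) RNA from CD31+ lung cells of 12 mice was sequenced, 3 mice per group. Per the labels and methods, the authors used HISAT2 for alignment to mm10, featureCounts for the counts and DESeq2 for the comparisons. Tool versions and the strand setting are not given in the sources used here. The deposited tables hold, for each listed gene, raw counts, counts divided by DESeq2 size factors (deposited normalized values, a signal), FPKM, group means, and the authors' log2 fold changes and p-values, which were not used as results. Their p-values and adjusted p-values served only to see that each table was restricted to p under 0.05 and to recover how many genes had been adjusted.

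Library totals (36.7 M to 56.8 M counts) were recovered from counts and FPKM, and size factors from counts and normalized values. With this depth, counting error is small for all but the lowest members. edgeR 4.0.16 (R 4.3.3) quasi-likelihood fits were made on all genes of a table with these size factors, 6 libraries per comparison and no covariate. Adjusted p-values used the recovered number of genes: 18463 for the genotypes on chow, 23768 for the diets in WT, 18703 for the genotypes on HFD and 19511 for the diets in TET2 KO. For its list of genes changed by TET2 deletion the study also asked for an absolute log2 fold change over 1, and for the diet comparisons and overlaps it did not. This limit was tried here as an alternative. For the difference of diet effects, size factors were joined across tables by least squares, and p-values were adjusted over the 975 genes fitted only. Scripts were tested on simulated counts. p-values set each difference between groups against the spread between the mice within them. That spread was estimated over listed genes alone, which had been selected at p under 0.05, so p-values and SE may be too small.

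Members and lists were chosen with earlier results of these data known. Named members were the 6 highest and 6 lowest called log2 fold changes of a comparison with at least 50 normalized counts, members listed in 3 tables, and a list of 44 vascular genes, of which 33 were listed; Dll3, Unc5d and other members outside it were named after their values were seen. Alternatives were DESeq2 1.42.0, TMM factors, library totals, a mean of at least 10 counts, a replicate block, 1 fit over 12 libraries, stricter thresholds, leaving out each library and, added after seeing the data, scaling to endothelial markers.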

Additional observations from a re-analysis of the deposited data

Results flagged for a closer look

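For 5 members the effect of HFD differed between TET2 KO and WT by a test of the difference itself, edgeR's quasi-likelihood interaction term over 12 libraries with Benjamini-Hochberg adjustment. The log2 differences were 0.85 for Sema4b, 5.74 for Dll3, -2.31 for Efna1, -1.82 for Sema3f and -1.35 for Plxna1, with adjusted p from 0.0159 to 0.0317. All 5 kept their sign in each of the 12 fits with 1 library left out. The adjusted p stayed under 0.05 in 12 of those fits for Sema4b and Efna1, in 11 for Dll3 and in 6 each for Sema3f and Plxna1. The unadjusted p stayed under 0.05 in all 12 for each of them but Plxna1, for which it did in 10. The Dll3 difference was 3.19 without TET2 KO HFD replicate 1, the fit in which its adjusted p was lost. Of all genes open to this test 55.5% passed it, and these genes had been selected by the tables that list them. Sema4b, Dll3, Efna1 and Sema3f were open to it through listing in both genotype comparisons. Of the 461 genes so listed, 99.1% had opposite signs on the 2 diets, so a difference was all but set in advance for these 4. TET2 KO chow replicate 1 was the highest library of its group for Efna1, Sema3f and Plxna1. It was so too for the endothelial markers Ramp2, Sox18, Calcrl and, narrowly, Emcn. The part of endothelial RNA in these differences was not tested. TET2 KO HFD replicate 1 was the highest of its group for Dll3, at 0.360 FPKM. The part of these libraries in the differences was not tested beyond leaving each out.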

How the results depend on the processing

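Of 58, 37, 9 and 7 listed members, edgeR called 53 for HFD against chow in WT, 34 for TET2 KO against WT on HFD, 7 for HFD against chow in TET2 KO and 6 for TET2 KO against WT on chow. An adjusted p under 0.05 left 13, 0, 0 and 0, and an absolute log2 fold change over 1 left 33, 12, 1 and 3. One fit over 12 libraries, open to 11 members only, called 8 for HFD in WT, 4 for TET2 KO against WT on HFD and 2 for TET2 KO against WT on chow. Leaving out 1 library gave 37 to 52, 9 to 32, 3 to 7 and 2 to 6, and 4 to 6 of the 6 calls for the difference of diet effects. In HFD against chow in TET2 KO the count was 3 without TET2 KO HFD replicate 3 and 4 without any 1 of TET2 KO chow replicates 1, 2 and 3 and TET2 KO HFD replicate 1. In TET2 KO against WT on chow it was 2 without WT chow replicate 1 or 2 and 3 without TET2 KO chow replicate 1. DESeq2, TMM factors, library totals and a mean of at least 10 counts kept each of the 5 counts within 1.5 times, and turned no named member's direction. The replicate block gave 49, 33, 7, 4 and 6 calls. Same-numbered libraries deviated together in some pairs and not in others (r from -0.24 to 0.30). In HFD against chow in TET2 KO their r was 0.096, 0.26 and 0.16, against means of -0.063, -0.099 and -0.093 with the other numbers. Whether the numbers pair mice cannot be told from these values.

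Scaling to the endothelial markers called 21 members for HFD in WT, all lower, and 6 for TET2 KO against WT on HFD, all higher. It turned the sign of 35 of 58 and 25 of 37 members. Of members under the naming rule 39 values turned, for HFD in WT Angpt1 -0.59, Dll1 -0.68, Dll4 -0.57, Efnb2 -0.26, Flt4 -0.55, Jag1 -0.64, Jag2 -0.47, Kdr -0.72, Nrp1 -0.84, Ntn1 -0.11, Ntn4 -0.74, Plxna1 -1.08, Plxnb2 -0.017, Plxnd1 -1.39, Robo4 -0.20, Sema3f -0.076, Sema6a -0.54, Sema7a -0.87, Slit2 -0.72, Tie1 -0.017, Unc5b -0.96 and Vegfa -0.54. Other members that the text calls higher there and that turned were Sema3b -0.14, Sema4d -0.70, Ntng2 -0.53, Angptl2 -0.76, Angptl6 -0.88 and Angptl8 -0.35. For TET2 KO against WT on HFD the values under the rule that turned were Dll4 0.012, Efnb2 0.046, Epha4 0.35, Flt1 0.48, Flt4 0.20, Jag1 0.49, Jag2 0.31, Ntn1 0.19, Plxna1 0.30, Plxnd1 0.70, Robo4 0.091, Sema3f 0.14, Sema7a 0.61, Tek 0.036, Tie1 0.15, Unc5b 0.38 and Vegfa 0.35. With 3 mice per group and tables cut at p under 0.05, a member that is not listed has no value here.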
